A study of Arabidopsis thaliana with 4 samples.

Results

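Plastid genes are transcribed by RNA polymerases of both bacterial and phage type. The bacterial-type enzyme has a core encoded in the plastid genome, but it depends on nuclear genes for its sigma factors, which choose the promoters, and for the polymerase-associated proteins, or PAPs, that surround the core in green tissue. Loss of most PAPs leaves seedlings pale or albino. The phage-type enzymes RPOTp and RPOTmp are single nuclear-encoded proteins. PTAC proteins were named after the plastid transcriptionally active chromosome, the DNA and protein preparation in which they were found, and several of them are PAPs.

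The genes described here are 30 nuclear loci of this machinery in Arabidopsis thaliana: PTAC1 to PTAC18, SIG1 to SIG6, RPOTp, RPOTmp, MurE-like, FLN1, FLN2 and TRX z. They were chosen by name and locus, not by a measured value, from the 25665 loci with a probe. Earlier results of these data were known when they were chosen. Each had 1 probe, and all 30 loci were found in the reference table of names.

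Shoot apices of the ron3 mutant were compared with those of the Ler control, the accession Landsberg erecta, in plants grown in vitro to stage 1.02 under the condition labelled LD. The labels give no ron3 allele. Each of 4 two-colour arrays held RNA of both genotypes, with ron3 in Cy5 on arrays a and c and in Cy3 on arrays b and d. The series describes dye swaps with biological replicates but not which arrays share an extract, so p-values measure the spread between these arrays, which may be technical.

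The RON3 probe, which checks the labels, gave a log2 ratio of ron3 over Ler of −2.30 ± 0.08 (SD, n = 4), and its position relative to the lesion was not determined here. Between 54.2% and 59.5% of gene probes were well above background in either genotype on each array. Across the 19246 genes tested, Pearson’s r between the log2 ratios of 2 arrays ran from 0.888 to 0.951, and genes are not independent replicates. The label of a shoot apex was set against its markers. Of 6 shoot meristem markers 4 were measured, among them STM and KNAT1, while the defining genes CLV3 and WUS were well above background on 0 arrays. All 9 markers of green mesophyll were well above background in both genotypes on all 4 arrays.

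Most of the plastid transcription machinery was lower in ron3. Of the 30 listed genes 29 were tested, and PTAC11 was well above background on 0 arrays in both genotypes. Of the 29, 26 were lower and 1, SIG5, was higher (limma, adjusted p below 0.05 over all genes tested). Over all genes tested 69.8% were called, 32.8% as lower and 37% as higher. The share called lower was thus 89.7% of the listed genes tested and 32.8% of all genes tested. SIG3 and RPOTmp were not called.

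The changes were moderate in size. The median log2 change was −0.62 over the 29 genes and 0.02 over all genes tested, and the median size without regard to sign was 0.62 against 0.28. Changes ran from −1.15 in FLN1 to 0.31 in SIG5. Only FLN1 and FLN2 were called with a change of at least 2-fold, and 2.04% of all genes tested were lower by that much. The mean over the 29 genes was −0.55, −0.56, −0.63 and −0.62 on arrays a to d, negative and of similar size in both dye orientations. The sign was the same on all 4 arrays for 27 genes, each of which was called, where 74.1% of all genes tested had a constant sign.

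All 29 genes gave signals well above background in both genotypes on every array. The normalised ron3 signals lay below the Ler signals with no overlap for 25 of them (26.1% of all genes tested) and above them for SIG5 (28.8%). The signals of PTAC1, SIG3 and RPOTmp overlapped between genotypes. The listed probes were mostly bright, and among tested genes whose signal reached at least the median of the listed genes, 39.2% were called lower. In a whole apex, fewer cells of a type and less RNA per cell cannot be told apart.

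**Figure D1:**
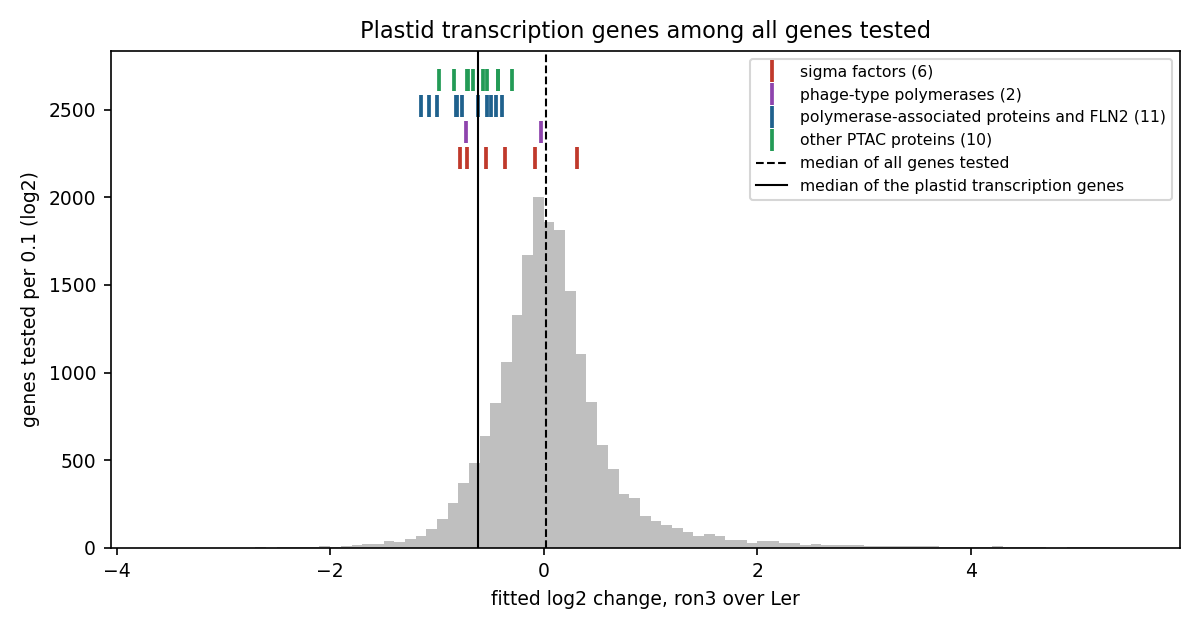
Histogram of the fitted log2 change of ron3 over Ler for the 19246 genes tested, with coloured ticks above it for the 29 plastid transcription genes by role. The solid line is the median of the 29 genes (−0.62) and the dashed line that of all genes (0.02), and every tick except that of SIG5 lies below 0.

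The sigma factors did not move together. SIG2, SIG4, SIG6 and SIG1 were lower in ron3, SIG5 was higher, and SIG3 was not called. SIG4 (AT5G13730), which is known for directing transcription of ndhF, had log2 ratios of −0.83, −0.66, −0.73 and −0.91 on arrays a to d. They averaged −0.79 ± 0.11 (SD, n = 4), or 1.72-fold lower in ron3 (limma, adjusted p = 0.000632). Its normalised signals, in arbitrary units that can be compared between genotypes for 1 probe but not between probes, were 4616 to 5079 in Ler and 2610 to 3184 in ron3, well apart.

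SIG2 (AT1G08540) is known for its part in transcribing plastid tRNA genes. Its log2 ratios were −0.62, −0.61, −0.72 and −0.93, a mean of −0.72 ± 0.15 and a 1.65-fold fall (limma, adjusted p = 0.00109). Array d gave both the lowest ratio and the lowest signals of either genotype, 2725 in Ler and 1430 in ron3. Signals on the other arrays were 3170 to 3713 in Ler and 2061 to 2440 in ron3, so the genotypes were apart with and without array d.

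SIG6 (AT2G36990) serves many photosynthesis genes early in seedling development. Its log2 ratios were −0.70, −0.34, −0.70 and −0.42, a mean of −0.54 ± 0.19 (limma, adjusted p = 0.000595). The arrays with ron3 in Cy5 gave the lower values and those with ron3 in Cy3 the higher ones, and SIG6 was the 1 gene of the 29 with an unadjusted p below 0.05 for the dye effect, which did not pass adjustment over all genes (limma, adjusted p = 0.404). Both orientations were below 0.

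SIG1 (AT1G64860), a broadly acting factor whose phosphorylation adjusts photosystem gene transcription, gave −0.46, −0.12, −0.33 and −0.52. Its mean was −0.36 ± 0.18, a 1.28-fold fall (limma, adjusted p = 0.0148). Array b stood nearest to 0. The call was lost without array a (−0.33, limma, adjusted p = 0.0769) and narrowly without array c (−0.39, adjusted p = 0.0502). The direction was kept in each of the 16 alternative settings, though several of them could not move the fitted change.

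SIG3 (AT3G53920), known for a promoter of psbN, gave −0.03, 0.07, −0.21 and −0.16. Its mean of −0.08 ± 0.12 was smaller than its spread (limma, adjusted p = 0.275), with array b above 0 and the others below. Without array b it was −0.14 and without array d −0.02, uncalled in each case. Signals were 2399 to 2648 in Ler and 2147 to 2547 in ron3 and overlapped.

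SIG5 (AT5G24120) is the sigma factor known to be induced by blue light and by stress, and it reads the light-responsive promoter of psbD. It was the 1 listed gene called higher in ron3, at 0.37, 0.58, 0.12 and 0.18 on arrays a to d, a mean of 0.31 ± 0.21 and a 1.24-fold rise (limma, adjusted p = 0.0292). Signals were 577 to 620 in Ler and 676 to 881 in ron3, apart but with the ron3 values of arrays c and d close to the upper Ler values. The rise held its sign in all 16 alternative settings (0.21 to 0.41), though several of them could not move the fitted change. The call was lost in 6 of the 16. These included the log ratio of the scanner software (0.26, limma, adjusted p = 0.103) and the authors' value table, which held nearly the same ratios. The others included the fits without array a (0.25, limma, adjusted p = 0.131), array b (0.21, adjusted p = 0.0501) and array c (0.38, adjusted p = 0.0556).

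The log2 ratio of SIG5 stood above that of each other sigma factor on every array. The mean difference was 0.67 from SIG1, 1.03 from SIG2, 0.40 from SIG3, 1.1 from SIG4 and 0.85 from SIG6 (n = 4 arrays each). In an exact two-sided sign-flip permutation test each of these gave p = 0.125, which is the smallest that 4 arrays allow, so the design could not reach 0.05. Adjusted over the 7 pairs compared in all, p stayed at 0.125.

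**Figure D2:**
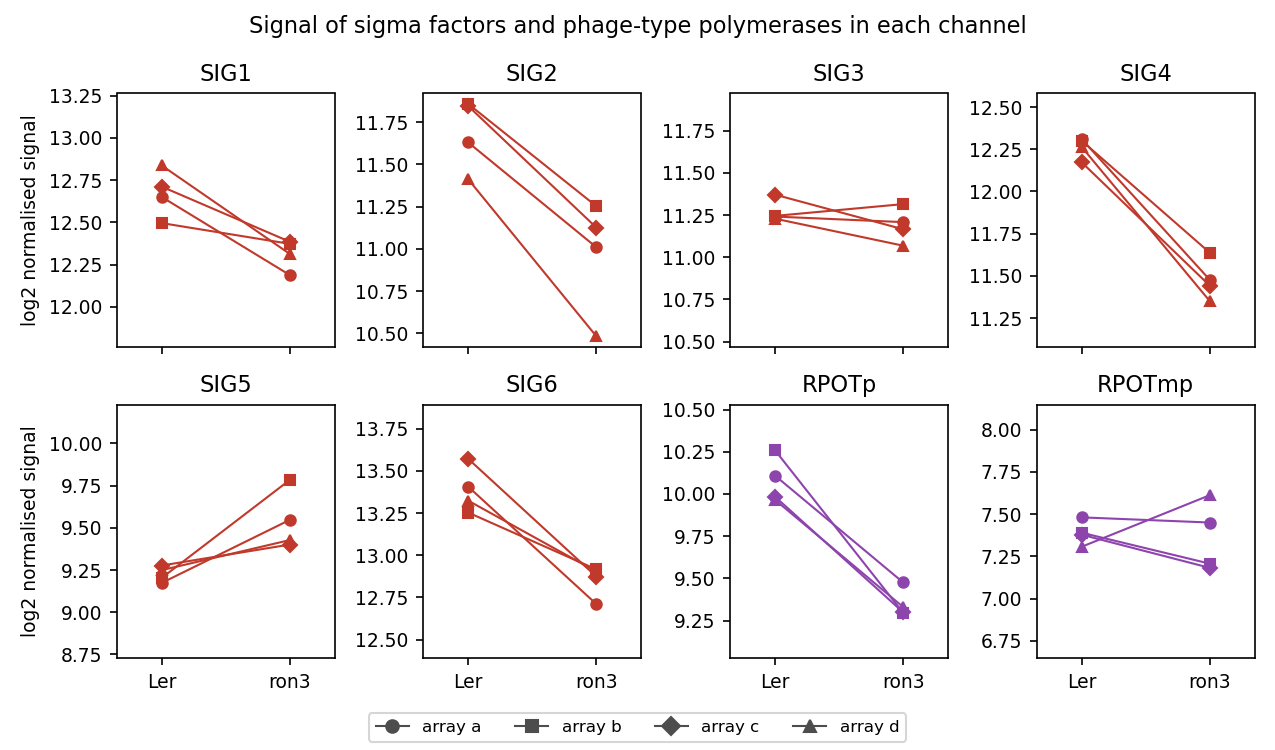
Normalised signal (log2, arbitrary units) of the 6 sigma factors and both phage-type polymerases in Ler and ron3, with 1 line per array and the same height of log2 range in every panel. Lines fall on all 4 arrays for SIG1, SIG2, SIG4, SIG6 and RPOTp and rise on all 4 for SIG5. In SIG3 (array b) and RPOTmp (array d) 1 line rises and the others fall.

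Of the phage-type polymerases 1 was called lower and the other was not called. RPOTp (AT2G24120), which transcribes housekeeping genes in plastids, was lower in ron3, with log2 ratios of −0.63, −0.96, −0.68 and −0.64 and a mean of −0.73 ± 0.16, a 1.66-fold fall (limma, adjusted p = 0.00102). Array b was lowest and the other arrays lay close together. Signals were 999.9 to 1225 in Ler and 628.8 to 712.2 in ron3, with no overlap.

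RPOTmp (AT5G15700), which works in both mitochondria and plastids, gave −0.03, −0.18, −0.20 and 0.31 and a mean of −0.03 ± 0.23 (limma, adjusted p = 0.816). Array d stood alone above 0. Its probe was dim, with signals of 158.3 to 178.6 in Ler and 145.2 to 195.7 in ron3. RPOTp minus RPOTmp was −0.70 on average, −0.94 to −0.49 over the 4 arrays (exact two-sided sign-flip permutation test, p = 0.125, the smallest 4 arrays allow).

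The PAPs were lower as a group without exception. All 10 listed PAPs were called lower, with a median log2 change of −0.69 and a range of −1.15 to −0.39, and their largest adjusted p was 0.00166 (limma). FLN1 (AT3G54090), a PAP related to fructokinases, and FLN2 (AT1G69200), its close relative, both bind the thioredoxin TRX z and had the largest changes of the 29. FLN1 gave −1.14, −1.20, −1.20 and −1.07, a mean of −1.15 ± 0.06 and a 2.22-fold fall (limma, adjusted p = 0.000218).

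The FLN1 signals formed separate tight groups, 9015 to 9403 in Ler and 3927 to 4491 in ron3. Ordered from the lowest change, FLN1 was at position 248 of the 19246 genes tested and FLN2 at position 311. FLN2 gave −1.01, −1.15, −1.15 and −1.01, a mean of −1.08 ± 0.08 and a 2.11-fold fall (limma, adjusted p = 0.000291). Its Ler signals of 4897 to 5229 and ron3 signals of 2211 to 2602 did not overlap. FLN1 minus FLN2 was −0.07 on average and −0.14 to −0.05 over the arrays, a small difference of constant sign (exact two-sided sign-flip permutation test, p = 0.125). TRX z (AT3G06730), the thioredoxin that binds both, was also lower, with −0.51, −0.68, −0.62 and −0.65 and a mean of −0.62 ± 0.08 (limma, adjusted p = 0.000502).

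PTAC10 (AT3G48500) is a PAP with an S1 RNA-binding domain. It gave −0.82, −1.14, −0.97 and −1.06, a mean of −0.997 ± 0.14 that fell just short of 2-fold (limma, adjusted p = 0.000291). Array a was nearest to 0, and signals of 8649 to 9908 in Ler and 4172 to 5065 in ron3 were far apart. PTAC12 (AT2G34640), also called HEMERA, which acts in phytochrome signalling as well as in the polymerase complex, gave −0.84, −0.84, −0.92 and −0.70 and a mean of −0.82 ± 0.09 (limma, adjusted p = 0.000368). Its signals, 7583 to 8432 in Ler and 4124 to 5008 in ron3, did not overlap.

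The other PAPs covered the rest of this range. PTAC3 (AT3G04260), which has a DNA-binding SAP domain, stood at −0.81 ± 0.10 and PTAC7 (AT5G24314) at −0.77 ± 0.17. MurE-like (AT1G63680), a relative of the bacterial enzyme that builds cell walls, was at −0.54 ± 0.07. PTAC6 (AT1G21600) was at −0.49 ± 0.09, PTAC2 (AT1G74850), a pentatricopeptide repeat protein, at −0.44 ± 0.12 and PTAC14 (AT4G20130), a SET-domain protein, at −0.39 ± 0.12 (limma, adjusted p from 0.000312 to 0.00166 for these 6). For each of the 6 the ron3 signals lay below the Ler signals with no overlap. The subunits shared a direction, but FLN1 (−1.15) and PTAC14 (−0.39) stood far apart in size.

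**Figure D3:**
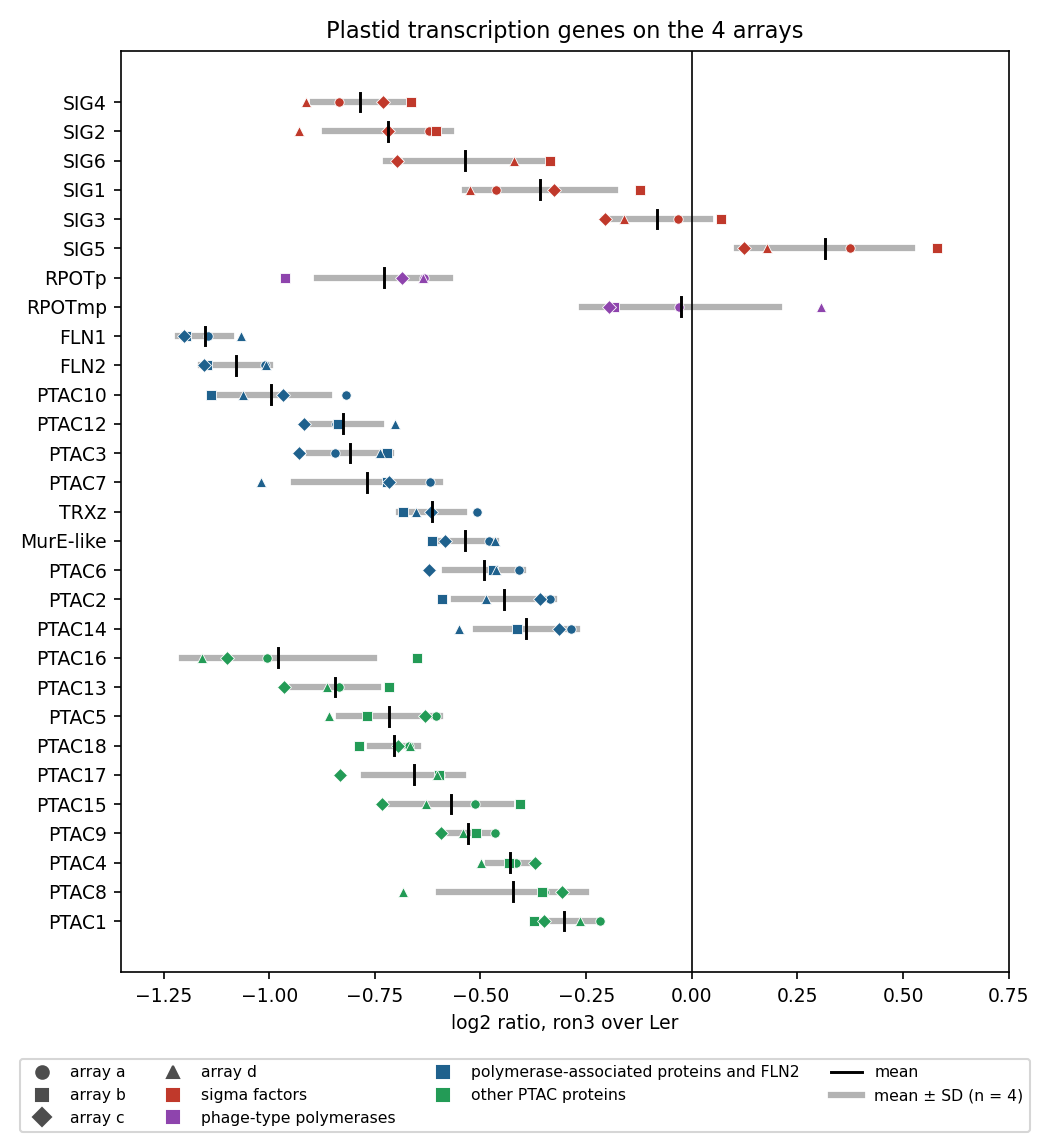
Log2 ratio of ron3 over Ler on each of the 4 arrays (symbols) for the 29 genes tested, coloured by role, with the mean (black bar) and mean ± SD (grey bar, n = 4). Every symbol of the PAPs and the other PTAC genes lies left of 0, and SIG5 is the 1 gene with all 4 symbols to the right.

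The PTAC genes outside the PAPs behaved alike, and over PTAC1 to PTAC18 all 17 tested were called lower, with a median of −0.66 and a range of −0.997 to −0.30. PTAC1 and PTAC11 encode the whirly proteins WHY1 and WHY3, which bind single-stranded plastid DNA. PTAC1 (AT1G14410) had the smallest change of the called genes, with −0.22, −0.37, −0.35 and −0.27 and a mean of −0.30 ± 0.07 (limma, adjusted p = 0.00445). Its signals overlapped, 2401 to 4593 in Ler and 1853 to 3629 in ron3, and both channels were lowest on array b, but ron3 was below Ler within each array. PTAC11 (AT2G02740) has no value, since its probe was not well above background.

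PTAC16 (AT3G46780), a thylakoid-associated protein, gave −1.01, −0.65, −1.10 and −1.16 and a mean of −0.98 ± 0.23, a 1.97-fold fall (limma, adjusted p = 0.00117). Array b was the nearest to 0, and the signals of 44622 to 52137 in Ler and 21670 to 28421 in ron3 did not overlap. PTAC13 (AT3G09210), which resembles the bacterial elongation factor NusG, gave −0.84, −0.72, −0.96 and −0.86 and a mean of −0.84 ± 0.10 (limma, adjusted p = 0.000403). Its ranges, 13567 to 14256 in Ler and 7249 to 8306 in ron3, were also apart.

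Of the remaining PTAC genes, PTAC5 (AT4G13670), a protein with a DnaJ-type zinc finger, stood at −0.72 ± 0.12. PTAC18 (AT2G32180), a cupin-like protein, was at −0.70 ± 0.06 on a dim probe with signals of 226.1 to 287.6 in Ler and 142.3 to 176.4 in ron3, and the log ratio of the scanner software put it at −1.25. PTAC17 (AT1G80480), which has a CobW domain, was at −0.66 ± 0.12 and PTAC15 (AT5G54180), a member of the mTERF family of organelle factors, at −0.57 ± 0.14. PTAC9 (AT4G20010), the single-stranded DNA-binding protein OSB2, was at −0.53 ± 0.05.

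PTAC4 (AT1G65260) and PTAC8 (AT2G46820) are better known as thylakoid proteins, VIPP1 of membrane upkeep and CURT1B of membrane curvature. They stood at −0.43 ± 0.05 and −0.42 ± 0.17. All of the PTAC genes in this and the preceding group had ron3 signals below Ler signals with no overlap, with adjusted p up to 0.00487 (limma). Both values were at the small end of the list, near those of PTAC2 and PTAC14.

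Further partners of the polymerase complex that are not on the list were also lower. Of 5 such genes 4 were tested and all 4 were called lower (32.8% of all genes tested), with a median of −0.40. NCP, a phytochrome signalling protein that promotes assembly of the complex, stood at −0.89 ± 0.04, and its paralogue RCB at −0.30 ± 0.24. The plastid iron superoxide dismutases FSD2 and FSD3, both counted among the PAPs, were at −0.49 ± 0.24 and −0.29 ± 0.11 (limma, adjusted p from 0.000272 to 0.025 for the 4). FSD2 differed between the dye orientations, with −0.23 and −0.34 on arrays a and c and −0.72 and −0.66 on arrays b and d. PRIN2 was not tested.

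Other nuclear genes of plastid transcription were mixed. Of 15 tested, 7 were lower, 4 were higher and 4 were not called, with a median of −0.13. The shares were 46.7% lower and 26.7% higher, against 32.8% and 37% of all genes tested. SIB1, a protein that binds sigma factor SIG1 and is also known as a defence-induced gene, rose by 3.90 ± 0.53 on the log2 scale, a 14.9-fold rise, with 3.94, 3.32, 3.76 and 4.58 on arrays a to d (limma, adjusted p = 0.000386). SOLDAT10 and MTERF6, both mTERF proteins, stood at −0.88 ± 0.07 and −0.83 ± 0.08, and RHON1, which ends transcription of rbcL, at −0.72 ± 0.11 (limma, adjusted p from 0.000345 to 0.000421 for these 3).

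Nuclear genes of the plastid ribosome were also mostly lower. Of 19 tested, 18 were called lower and 0 higher (32.8% and 37% of all genes tested), with a median of −0.72. RPL24 stood at −0.79 ± 0.08, RPL11 at −0.72 ± 0.11 and RPL13 at −0.83 ± 0.12 (limma, adjusted p from 0.000362 to 0.000426). The plastid-encoded core subunits and the plastid transcripts used as readouts of single sigma factors or of the phage-type polymerase had no probe matched by locus and are not analysed here.

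Markers of cell types moved too. Of the 9 green mesophyll markers, genes of photosynthesis, 8 were called lower and 0 higher, against 32.8% and 37% of all genes tested. Their median was −0.34, with means of −0.46, −0.32, −0.44 and −0.62 on arrays a to d. CAB1, CAB3 and LHCB2.1 differed between the dye orientations, and LHCB2.1 gave −0.59, 0.14, −0.47 and −0.01. Of the 9 root markers 4 were well above background on at least 2 arrays in both genotypes. All 4 were called higher (37% of all genes tested), at 0.20 to 1.43, with means of 0.90, 0.94, 0.95 and 0.33 on arrays a to d. The other 5 entered through their ron3 signal alone, which favours a higher value, and no size is given for them. The 4 meristem markers measured were split. STM at 0.40 and KNAT1 at 0.33 were called higher, and KNAT2 at −0.19 and CLV1 at −0.15 were called lower. These shares were 50% each, against 37% higher and 32.8% lower of all genes tested. Both the green and the root markers had their lowest mean on array d. The plastid ribosome genes did too, at −0.83 on array d and −0.55 on array c. The mean over the plastid transcription genes was −0.62 on array d and −0.63 on array c, but their groups differed. PTAC1 to PTAC18 (−0.69 on array d, −0.67 on array c) and the sigma factors (−0.46 and −0.43) also had their lowest mean on array d. The PAPs were lowest on array b (−0.74), and the phage-type polymerases were nearest to 0 on array d (−0.16). The part of tissue composition in the changes of the plastid transcription genes was not tested.

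**Figure D4:**
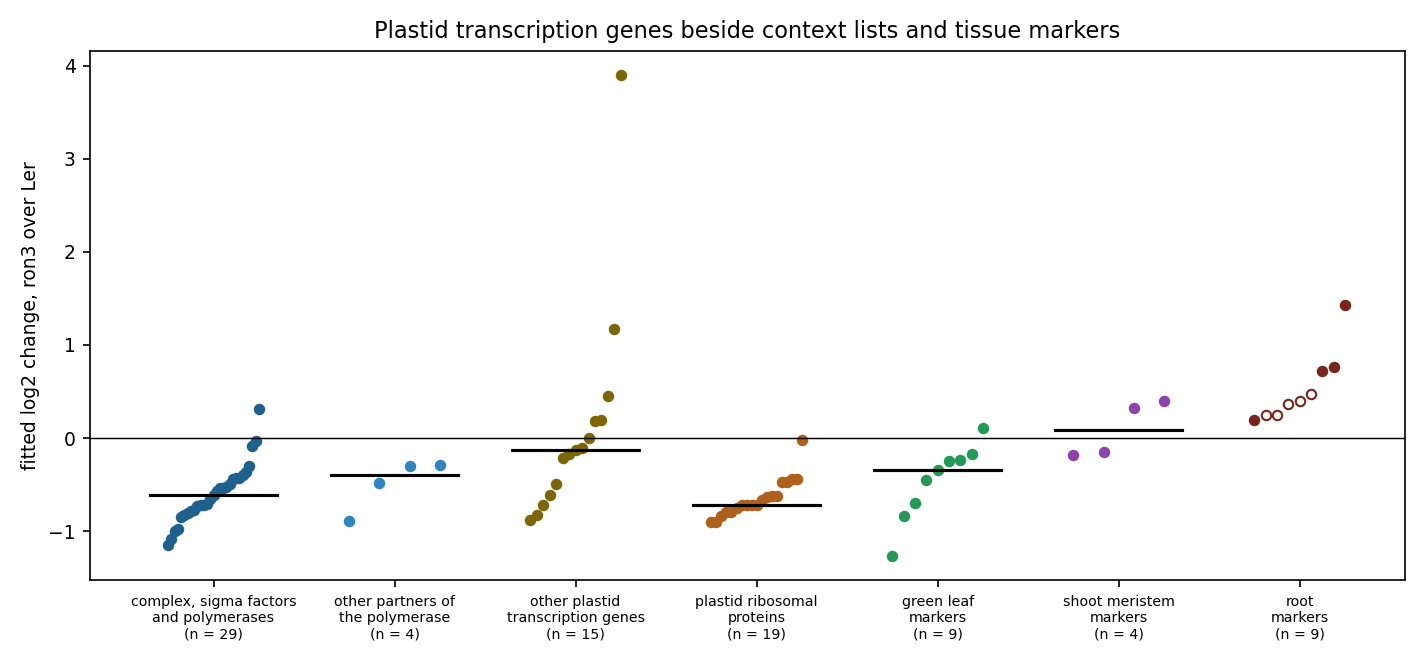
Fitted log2 change of ron3 over Ler for each gene tested (points) in the plastid transcription list, the context lists and the tissue marker lists, with the median of each list (black bar). Open points are the 5 root markers that entered through their ron3 signal alone, and that list has no median bar. The medians are −0.62 for the plastid transcription genes, −0.72 for plastid ribosomal proteins and −0.34 for green markers, and the highest point is SIB1 at 3.90.

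Apart from SIG5 and SIG1, the 25 other called genes kept their call and their direction in all 16 alternative settings. These included the authors' own value table, which held nearly the same ratios as the scanner software, and the removal of each array in turn. Settings that changed only the dye effect, filter, probe choice, moderation or pairing could not move the fitted change of these genes. Only the call was open in them. SIG3 was not called in any of the 16. RPOTmp was not called in any of them either, and its sign turned positive without array b (0.10) and without array c (0.02).

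**Figure D5:**
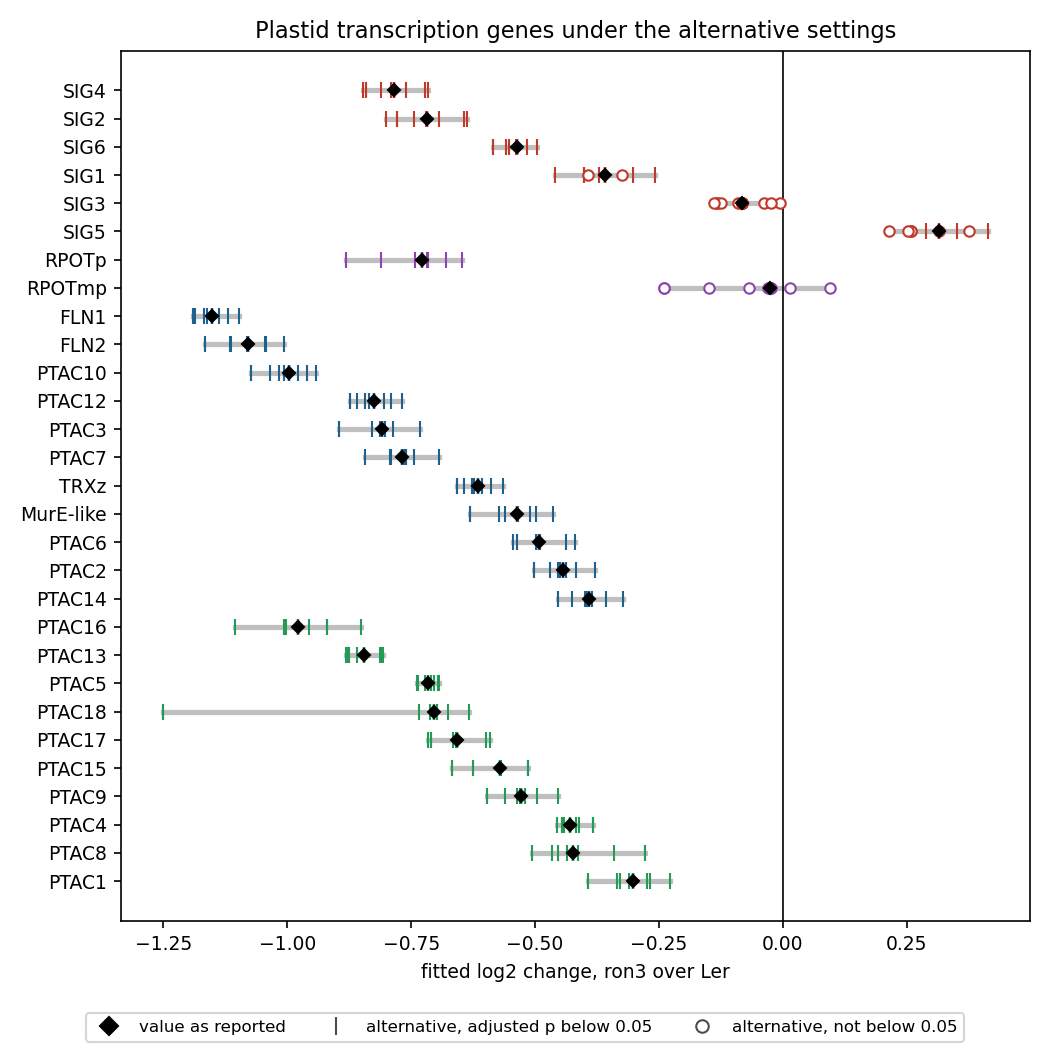
Fitted log2 change of ron3 over Ler for the 29 genes under the 16 alternative settings, with the reported value as a black diamond, ticks for alternatives with an adjusted p below 0.05 and open circles for the others (red sigma factors, purple phage-type polymerases, blue PAPs and FLN2, green other PTAC genes). Open circles appear for SIG1, SIG3, SIG5 and RPOTmp alone.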

How the data were processed

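Agilent Feature Extraction 10.1.1.1 gave the spot values, per the submitters' processing notes. The deposited spot and background signals are medians in units of intensity, per the file headers. The deposited log10 ratio of Cy5 over Cy3 and the authors' deposited log2 value table, which matched the processed signals within 5e-06, served as alternatives, and the other deposited columns are spot flags. All 4 arrays lay on 1 slide, and their number limits the precision.

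Median signals, used because the deposited columns hold no mean spot signal, were corrected with normexp (limma 3.58.1, R 4.3.3, offset 50) and normalised by loess within arrays. Genes entered if at least 2 arrays had either genotype well above background and at least 3 were unflagged, with the brightest probe per gene. A linear model with a dye effect was fitted with limma to all 19246 genes, with 2 residual degrees of freedom, two-sided tests and an adjusted p (Benjamini-Hochberg) of 0.05 as threshold. The dye effect was called for 0 genes (limma), with 2208 at an unadjusted p below 0.05. With 2 residual degrees of freedom, 0 calls does not mean that no gene had a dye effect. SDs are over the 4 arrays and still hold the dye effect.

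On simulated data for this comparison over 19246 genes, 42 of 50 genes changed by −1, 29 of 50 by −0.5, 23 of 50 by 0.5 and 38 of 50 by 1 on the log2 scale were recovered, with 6 false calls. Only these genes were changed in the simulation, while 69.8% of all genes tested were called in the data. Its recovery and false calls need not hold for the data. Genes and lists were chosen with earlier results of these data known. Values per array are given for the sigma factors, polymerases and whirly genes and for the 6 largest changes of the rest, and up to 4 genes of each context list by smallest p. Of these, 1 gene of the plastid ribosome list is not reported here. TRX z was given per array as well, and PRIN2 named, after their values were seen. Names came from the TAIR10.1 table of RefSeq.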

Additional observations from a re-analysis of the deposited data

Results flagged for a closer look

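In each of the 29 genes tested, the highest and the lowest of the 4 arrays were set against the others with Dixon's gap ratio at its critical value for 4 values. In 3 genes 1 array stood apart, where chance alone would mark about 1 gene in 20. PTAC8, the curvature protein CURT1B, was at −0.68 on array d and between −0.35 and −0.31 on the other arrays. PTAC17, the CobW-domain protein, was at −0.83 on array c and at −0.60 on each of the others. RPOTp, the plastid phage-type polymerase, was at −0.96 on array b and between −0.68 and −0.63 on the others. The 3 values lie on 3 different arrays, each lies on the same side of 0 as the others of its gene, and all 3 genes stayed called as lower in all 16 alternative settings.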

How the results depend on the processing

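The 16 alternatives changed the background correction, normalisation, filter, probe choice, moderation, dye effect or pairing of arrays, or left out 1 array. Those that changed only the filter, probe choice, moderation, dye effect or pairing could not move the fitted change of a listed gene, only its call. The same holds for evening signal levels between arrays after loess. The count of listed genes called lower was 26 in each, except for 25 without array a and without array c (leaving out 1 array, 25 to 26). The count called higher was 0 with the log ratio of Feature Extraction, with the authors' value table and with arrays a and b and arrays c and d averaged in pairs, and 0 to 1 when 1 array was left out. In each case SIG5 was the gene lost, and without arrays a or c SIG1 was lost as well. The median change of the listed genes was −0.67 with both the log ratio of Feature Extraction and the authors' table, −0.56 with median centring, and −0.64 to −0.59 when 1 array was left out. RPOTmp changed sign without array b (0.10, limma, adjusted p = 0.202) and without array c (0.02, adjusted p = 0.925), within a range of −0.15 to 0.10 when 1 array was left out, and the cause was not tested. The number of all genes called ran from 10030 to 13236 when 1 array was left out, with fewer residual degrees of freedom. The share of lower calls among all calls was 47% in the reported fit and 55.2% with Feature Extraction and the authors' table. With those values PTAC18, on a dim probe, moved from −0.70 to −1.25, RPOTmp from −0.03 to −0.24, PTAC8 from −0.42 to −0.28 and SIG3 from −0.08 to −0.13. SIG3 was −0.01 with median centring and −0.14 to −0.02 when 1 array was left out. The ratio within an array pairs the genotypes in every fit.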
